A study of Mus musculus with 11 samples.

Results

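The syndecans and glypicans are cell-surface proteins that carry heparan sulfate, and 8 of their genes (Sdc1, Sdc2, Sdc3, Sdc4, Gpc1, Gpc3, Gpc4 and Gpc6) were followed in mouse epididymal fat. They were taken as all probe sets, the groups of short probes that read a transcript on the array, that the platform annotation assigns to one of the 8 symbols, which gave 22 of 45037 probe sets. The family was selected on the measured difference of a probe set of Sdc4 in both comparisons with wild type, so the differences of Sdc4 from wild type are given below as a description with no test. Epididymal fat, a visceral depot, came from male C57BL/6 mice aged 3 months on standard chow. The wild type (B1+/+, 4 arrays) had the kinin B1 receptor, which Bdkrb1 encodes and which signals through G proteins when kinins bind it. The knockout (B1-/-, 4 arrays) lacked it. The fat rescue (aP2B1-B1-/-, 3 arrays) lacked it too and carried a B1 transgene under aP2, the promoter of Fabp4, which is active in fat cells and is also known from macrophages. Both lines without the endogenous receptor were compared with the same 4 wild-type arrays, so the comparisons with wild type share their control.

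Heparan sulfate is a long, sulfated sugar chain that is built on a core protein and binds growth factors, chemokines, lipases and matrix proteins. Syndecans cross the membrane and bind the cytoskeleton through short cytoplasmic tails, whereas glypicans are held on the outer membrane leaflet by a lipid anchor. In fat the chains are known for binding lipoprotein lipase, and syndecan-4 in general for its place in focal adhesions beside integrins.

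The values are signal intensities on a linear scale, scaled by the authors to a common trimmed mean of 200.0, with array medians between 41.3 and 48.8. Precision is limited by how few arrays there are, and the labels call the arrays of a genotype biological replicates without saying more, so p-values measure the spread between these arrays. Wild-type array 1 lay apart on the first principal component (-68.1, where the next array, fat rescue array 1, was at -28.1, of 19.8% of the variance). The probe set of Bdkrb1, below the filter on dim probe sets, read 5.50, 32.2, 3.70 and 8.90 on the wild-type arrays, 4.80, 29.4, 6.90 and 29.7 on the knockout arrays and 73.4, 57.8 and 60.4 on the fat rescue arrays. The defining fat cell markers Fabp4, Adipoq and Retn were bright in every genotype. All 9 measured fat cell markers had lower estimates in knockout than in wild type (median -0.22) and 8 of 9 in fat rescue (median -0.12), 0 past the threshold (3 and 1 at an unadjusted p under 0.05, beside 7.25% and 8.17% of all 12709 genes read by their probe set of highest mean signal). Their summed signal lay between 84954 and 112914 on the wild-type arrays, 77160 and 104686 on the knockout arrays and 83606 and 100536 on the fat rescue arrays. Of 12 epididymis markers 9 were on the array and 1 passed the filter, with a signal of at most 40.6. In whole tissue, fewer cells of a type and less RNA per cell cannot be told apart.

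Of the 22 probe sets 21 were kept by a filter on mean log2 signal that keeps the upper 60% of all probe sets (27022). Sdc1 had 4 of them, Sdc2 3, Sdc3 3, Sdc4 2, Gpc1 1, Gpc3 1, Gpc4 2 and Gpc6 5. The probe set that was left out, 1431474_at of Sdc2, read between 0.50 and 16.6 on all arrays, against about 23.7 for the dimmest probe set kept. Each probe set is treated singly below, and levels are not set against each other across probe sets, which differ in how strongly they bind.

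Syndecan-4 stood out through 1 of its 2 probe sets. With probe set 1448793_a_at, the signal of Sdc4 was 696, 176, 194 and 313 on the 4 wild-type arrays. It was 1299, 1663, 1567 and 1811 on the 4 knockout arrays and 1672, 1978 and 1637 on the 3 fat rescue arrays. All 7 arrays without the endogenous receptor lay above all wild-type arrays, from 1.87 to 2.84 times the highest wild-type array. The means were 345 ± 242 for wild type, 1585 ± 215 for knockout and 1762 ± 187 for fat rescue (SD, n = 4, 4 and 3). Wild-type array 1 was high within its group, and without it the wild-type mean was 228 ± 74.5 (n = 3). On the log2 scale the difference was 2.42 ± 0.32 in knockout and 2.58 ± 0.35 in fat rescue (SE), each against wild type. These values chose the family, and nothing is supported with them.

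The other probe set of Sdc4, 1417654_at, did not follow. It read 208, 292, 279 and 314 on the wild-type arrays, 242, 258, 163 and 225 on the knockout arrays and 222, 237 and 127 on the fat rescue arrays. The genotypes overlapped, with means of 273 ± 45.8, 222 ± 41.5 and 195 ± 59.4 (SD, n = 4, 4 and 3). The log2 differences were -0.31 ± 0.21 in knockout and -0.52 ± 0.23 in fat rescue, in the direction opposite to the first probe set. Over the 11 arrays the log2 signals of these probe sets had a Pearson r of -0.59, a description over arrays that differ in genotype. The differences of the pair from wild type lay 2.73 apart in knockout and 3.10 in fat rescue. Both gaps hold the difference that chose the family. Which part of the transcript each probe set reads was not analysed here; in the maker's naming, the suffix _a_at marks probes that match several transcripts of 1 gene.

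**Figure D1:**
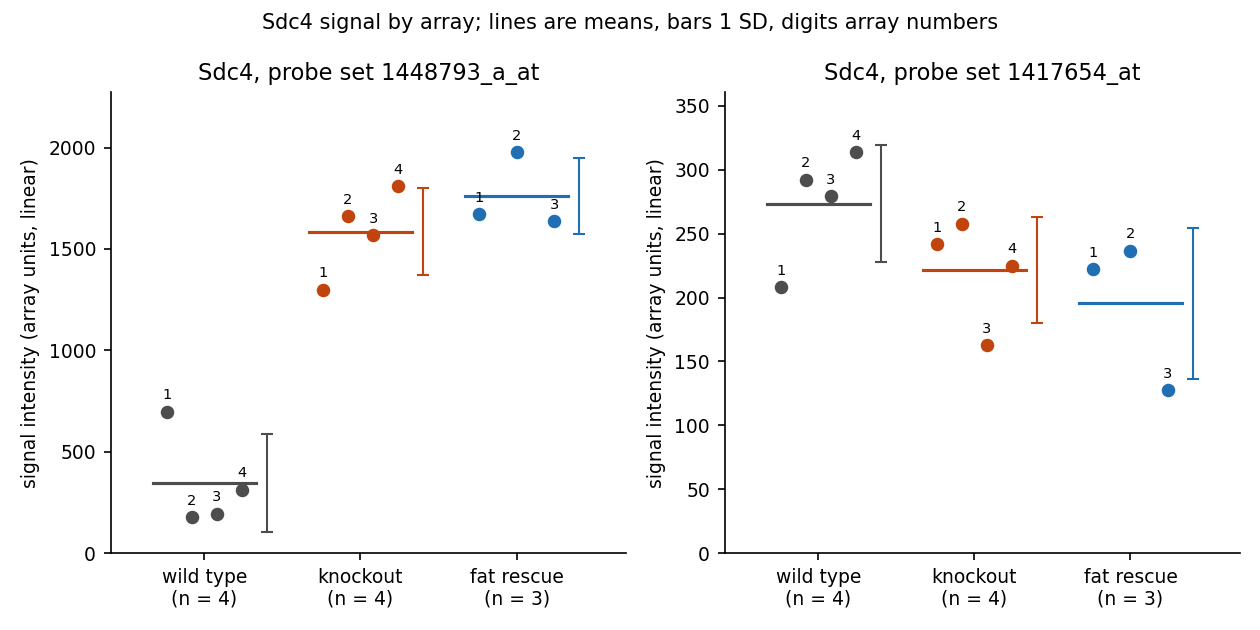
Signal intensity of Sdc4 (linear scale, from 0) on each array with probe set 1448793_a_at (left) and probe set 1417654_at (right), by genotype; digits are array numbers, lines are means and bars 1 SD. On the left the 7 arrays without the endogenous receptor lie between 1299 and 1978 and the wild-type arrays between 176 and 696, while on the right the genotypes overlap.

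The comparison of fat rescue with knockout was not used in choosing the family, and there Sdc4 was tested with the other members. With 1448793_a_at the difference was 0.16 ± 0.35 (95% confidence interval -0.59 to 0.91, limma adjusted p = 1.0). With 1417654_at it was -0.21 ± 0.23 (-0.70 to 0.27, limma adjusted p = 1.0). Neither passed, and the intervals leave room for a difference of up to 0.91 and down to -0.70 on the log2 scale. The gap between the pair was 0.37 here.

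The promoter of Sdc4 is shown because this gene has the family's largest difference from wild type; the arrays did not measure promoter activity. The 250 bases before its annotated start, from RefSeq on GRCm38.p6, are chr2:164443189-164443438 on the minus strand, written 5′ to 3′ along the gene, with GC boxes and the TATA box in capitals.
Sdc4: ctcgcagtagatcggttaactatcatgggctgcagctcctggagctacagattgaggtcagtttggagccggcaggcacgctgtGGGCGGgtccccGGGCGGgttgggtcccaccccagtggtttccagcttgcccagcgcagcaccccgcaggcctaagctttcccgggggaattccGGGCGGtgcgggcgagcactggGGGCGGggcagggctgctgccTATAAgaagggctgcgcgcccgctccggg
The GC box, searched as GGGCGG on both strands, had 4 matches that began 166, 154, 72 and 50 bases before the start. The TATA box, searched as TATAA on both strands, had 1 match that began 29 bases before it and overlapped none of them. Of 32851 promoter windows of this length in the table, 32.7% held the first motif and 22.8% the second. The letters CCAAT, held by 33.8%, were not in the window. The table held a window for 5 of the 8 members, among which Sdc1 and Sdc3 each had 3 GC box matches, Gpc3 3 and Gpc4 1. The GC content of the Sdc4 window was 68.0%, and it lay between 66.0% and 76.4% in the other 4 members, against a median of 52.4% over all windows.

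None of the other 7 genes passed the test in any comparison. In knockout against wild type 0 of their 19 probe sets passed (limma, Benjamini-Hochberg adjusted p under 0.05), where 0.0296% of all probe sets did. At an unadjusted p under 0.05 the count was also 0 of 19, where 7.64% of all did. No probe set of theirs had groups that did not overlap, against 4.17% of all. In fat rescue against wild type 0 of 19 passed, against 0.0222% of all. There 2 of 19 had an unadjusted p under 0.05 (10.5%, against 7.75% of all), and the groups did not overlap in 3 of 19 (15.8%, against 8.39% of all). In fat rescue against knockout 0 of 21 passed, as did 0% of all probe sets. An unadjusted p under 0.05 was seen for 1 of 21 (4.76%, against 3.69% of all), and groups that did not overlap for 0 of 21, against 5.08% of all. The median difference of the 19 probe sets was 0.058 in knockout and 0.15 in fat rescue, beside 0.042 and 0.045 over all probe sets, each against wild type.

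**Figure D2:**
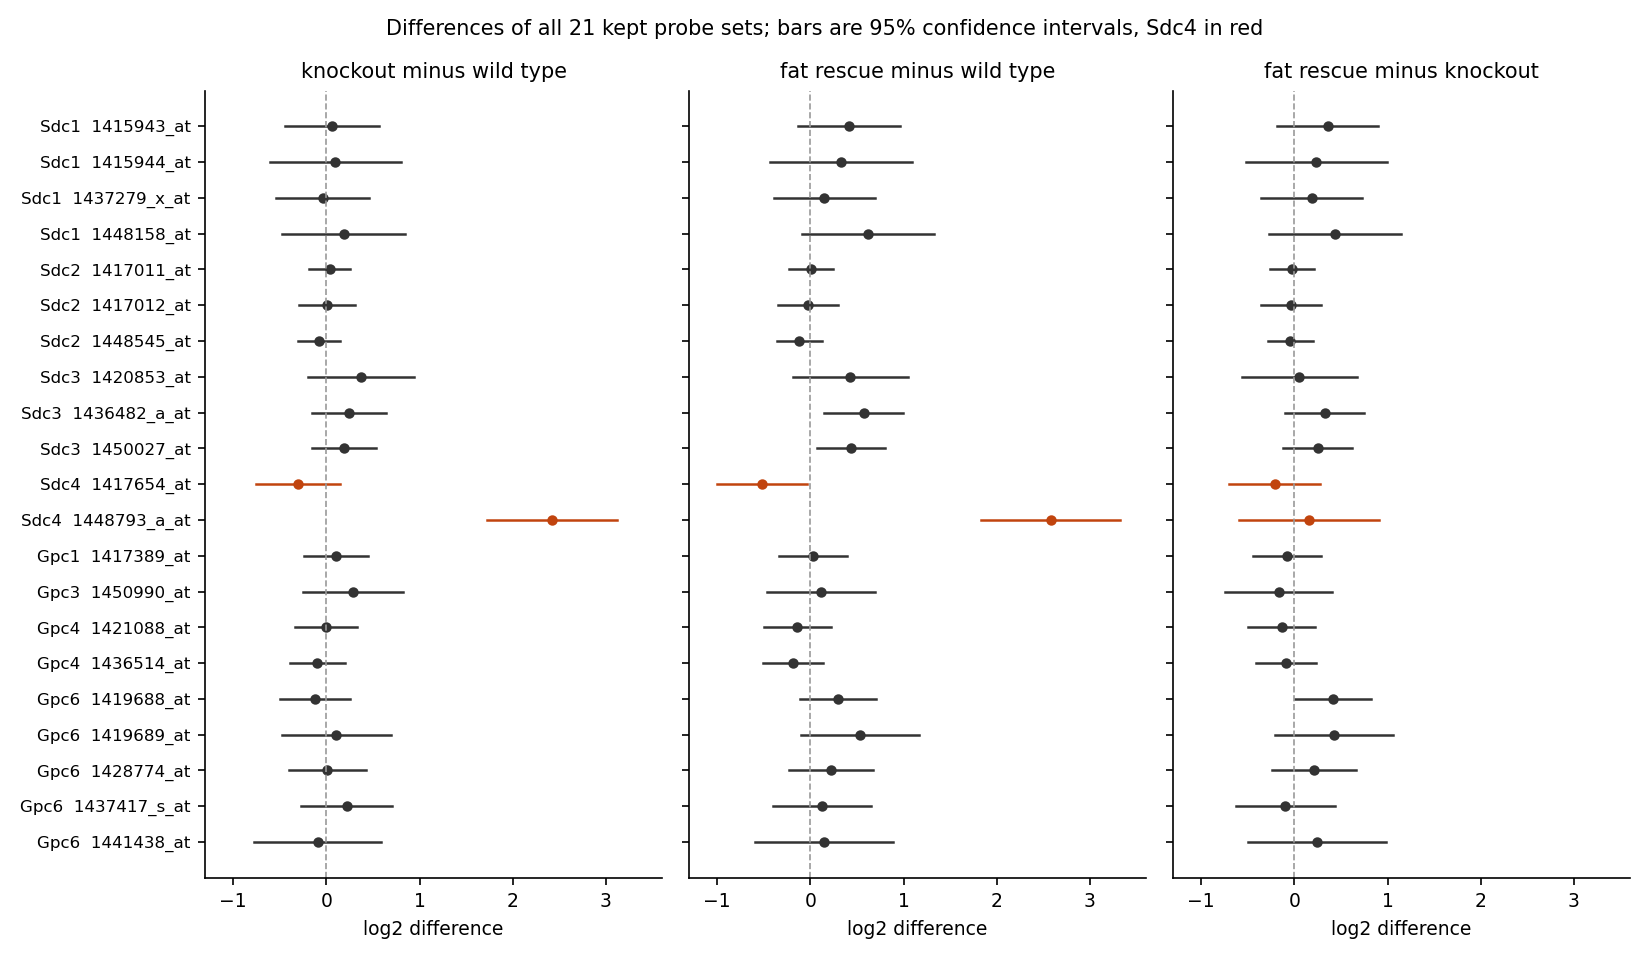
Log2 differences of the 21 kept probe sets between genotypes, in 1 panel a comparison; points are estimates, bars 95% confidence intervals and Sdc4 is drawn in red. For Sdc4 against wild type the bars are a description with no test. With the exception of probe set 1448793_a_at of Sdc4 in both comparisons with wild type, all estimates lie between -0.52 and 0.62.

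Syndecan-3, best known from neurons and muscle, had higher estimates than wild type in both lines with all 3 of its probe sets, 0 of them past the threshold. Its probe set 1450027_at read 389, 457, 491 and 458 on the wild-type arrays, 731, 458, 441 and 454 on the knockout arrays and 512, 624 and 692 on the fat rescue arrays. The 3 fat rescue arrays lay above all wild-type arrays, and in knockout array 1 alone did so while the other 3 fell within the wild-type range. The differences from wild type were 0.19 ± 0.16 in knockout (limma adjusted p = 0.786) and 0.44 ± 0.17 in fat rescue (adjusted p = 0.617, unadjusted 0.024). Probe set 1436482_a_at read 67.4, 80.0, 115 and 89.1 on the wild-type arrays, 132, 91.5, 93.1 and 96.7 on the knockout arrays and 128, 132 and 124 on the fat rescue arrays. Its fat rescue arrays again lay above all wild-type arrays, with a difference of 0.57 ± 0.20 (limma adjusted p = 0.596, unadjusted 0.0123). The third probe set, 1420853_at, differed by 0.38 ± 0.26 and 0.43 ± 0.29, and wild-type array 1 was its lowest array at 41.9. Without both wild-type array 1 and fat rescue array 1, its fat rescue difference was -0.0095. Pairs of Sdc3 probe sets had a Pearson r from 0.50 to 0.85 over the 11 arrays.

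Syndecan-1, known from epithelia, plasma cells and the liver's uptake of lipoproteins, had 4 probe sets and no call. The one of highest mean signal, 1415943_at, read 225, 242, 331 and 218 on the wild-type arrays, 442, 268, 166 and 235 on the knockout arrays and 327, 358 and 317 on the fat rescue arrays. The genotypes overlapped, and the knockout arrays spread most, from 166 to 442. Its differences from wild type were 0.058 ± 0.23 in knockout and 0.41 ± 0.25 in fat rescue (limma adjusted p = 0.968 and 0.718). Over the 4 probe sets the estimates in fat rescue against wild type ran from 0.15 to 0.62, the last with 1448158_at (SE 0.33, limma adjusted p = 0.679). In knockout they ran from -0.039 to 0.18. Sdc1 lies on chromosome 12, as Bdkrb1 does.

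Syndecan-2, known from fibroblasts and endothelium, had estimates close to 0 in both comparisons with wild type. With 1417011_at it read 405, 403, 398 and 328 on the wild-type arrays, 388, 381, 421 and 376 on the knockout arrays and 395, 415 and 348 on the fat rescue arrays, and the groups overlapped throughout. The differences from wild type were 0.034 ± 0.10 (95% confidence interval -0.18 to 0.25) in knockout and 0.011 ± 0.11 (-0.22 to 0.25) in fat rescue. For this probe set alone, those intervals leave out a change of 0.26 or more in either direction. Over the 3 kept probe sets the intervals reached from -0.30 to 0.30 in knockout and from -0.36 to 0.29 in fat rescue. The other kept probe sets of Sdc2, 1417012_at and 1448545_at, lay between -0.12 and 0.0052 in both comparisons with wild type. Pairs of its probe sets ranged in r from -0.47 to 0.55 over the 11 arrays.

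Glypican-1 had 1 probe set, 1417389_at, which read 179, 214, 149 and 165 on the wild-type arrays, 238, 154, 184 and 186 on the knockout arrays and 190.3, 195 and 153 on the fat rescue arrays. All groups overlapped, with differences of 0.11 ± 0.16 and 0.027 ± 0.17 from wild type (limma adjusted p = 0.889 and 0.977).

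Glypican-3, a growth regulator whose loss in mice gives overgrowth, also had 1, 1450990_at. It read 214, 339.7, 424 and 310.0 on the wild-type arrays, 350.3, 350.1, 395 and 432 on the knockout arrays and 248, 576 and 271 on the fat rescue arrays. Fat rescue array 2 was the highest of the 11 arrays and fat rescue array 1 the lowest but for wild-type array 1. The differences from wild type were 0.28 ± 0.25 in knockout (limma adjusted p = 0.795) and 0.11 ± 0.27 in fat rescue (0.937).

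Glypican-4, known as a protein that fat cells shed and that binds the insulin receptor, neighbours Gpc3 on chromosome X, with 0 protein-coding genes between them in the gene table. Its probe set 1421088_at read 896, 602, 758 and 725 on the wild-type arrays, 786, 682, 723 and 756 on the knockout arrays and 593, 916 and 554 on the fat rescue arrays. The groups overlapped, and fat rescue array 2 was again the highest array. The differences from wild type were -0.0041 ± 0.15 (-0.33 to 0.33, 95% confidence interval) in knockout and -0.14 ± 0.17 in fat rescue. With 1436514_at the 4 wild-type arrays lay close together, between 350.4 and 371, and the differences were -0.096 ± 0.14 and -0.19 ± 0.15 (limma adjusted p = 0.883 and 0.781).

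Glypican-6, known for a part in skeletal growth, had 5 probe sets with estimates on both sides of 0 in knockout (-0.12 to 0.22) and above 0 in fat rescue (0.12 to 0.53), each against wild type. The one of highest mean signal, 1428774_at, read 129, 176, 182 and 159 on the wild-type arrays, 214, 177, 105 and 171 on the knockout arrays and 186, 189 and 186 on the fat rescue arrays. Its 3 fat rescue arrays lay close together and above all wild-type arrays, with a difference of 0.22 ± 0.21 (limma adjusted p = 0.815). In fat rescue against knockout 1419688_at had the smallest unadjusted p of the family, 0.0465, with a difference of 0.41 ± 0.19 (limma adjusted p = 1.0). That probe set read 137, 100.3, 84.7 and 87.2 on the knockout arrays and 142, 125 and 135 on the fat rescue arrays, and the groups overlapped through knockout array 1.

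**Figure D3:**
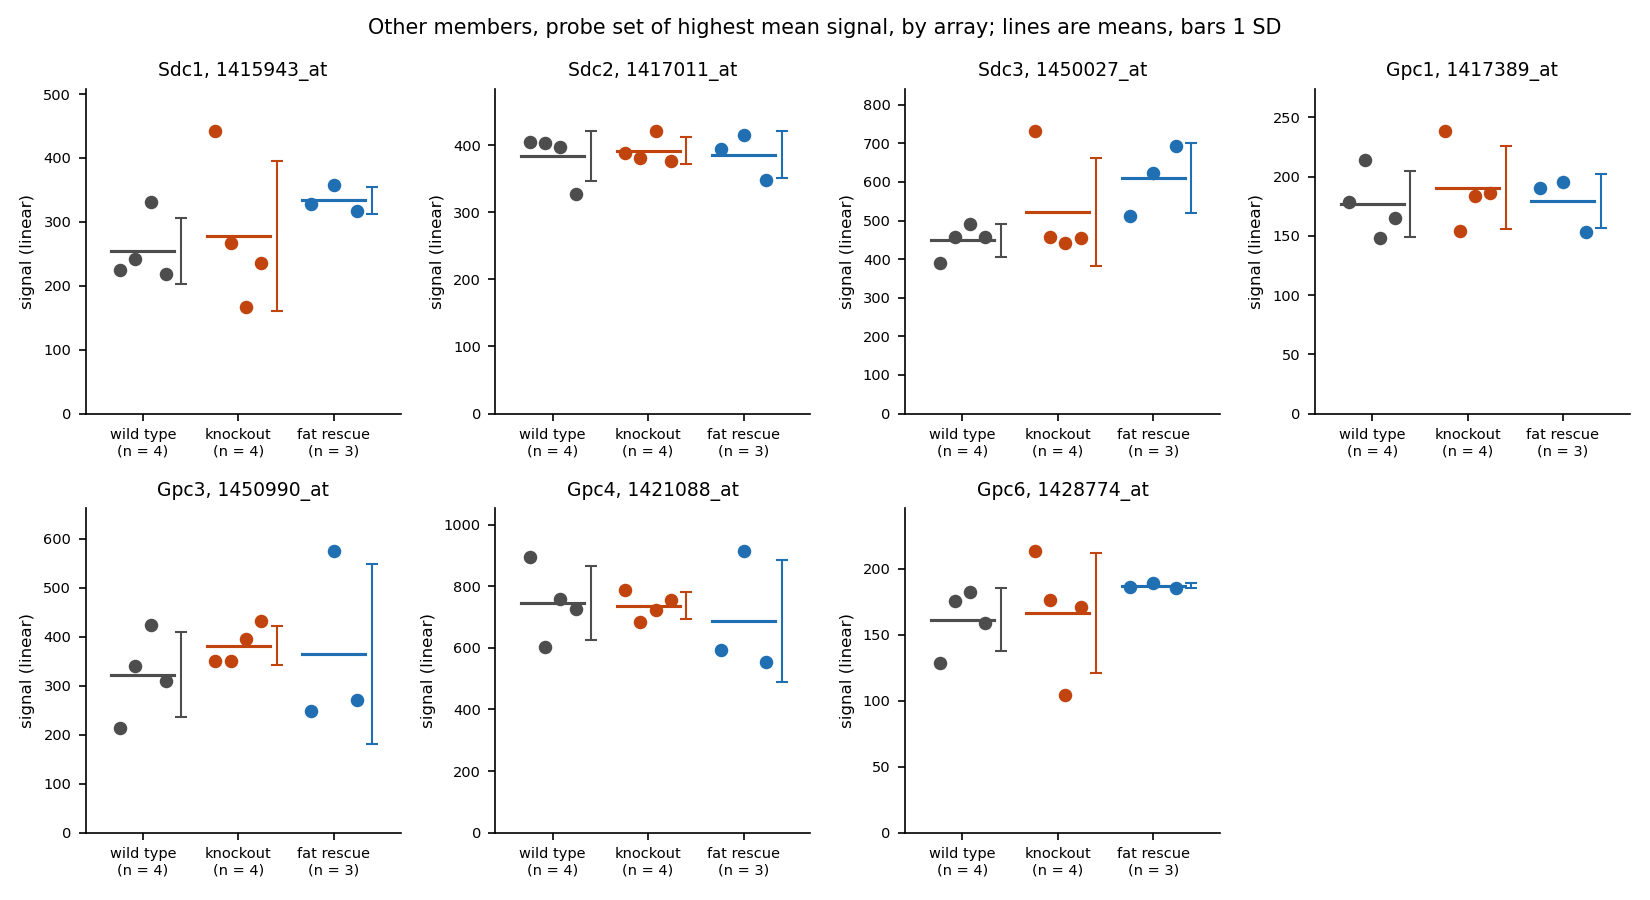
Signal intensity (linear scale, from 0) of the 7 members other than Sdc4 on each array, each with its probe set of highest mean signal, by genotype; lines are means and bars 1 SD. Knockout array 1 is the highest of its group for Sdc1, Sdc3, Gpc1, Gpc4 and Gpc6, and the 3 fat rescue arrays lie above all wild-type arrays for Sdc3 and Gpc6.

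Single arrays set much of the spread. Knockout array 1 was the highest of the 4 knockout arrays for 13 of the 21 probe sets, among them all 4 of Sdc1, all 3 of Sdc3 and 4 of the 5 of Gpc6. That array also had the highest summed signal of 14 macrophage markers, 34010.1, where the other knockout arrays began at 18138. In wild type that sum lay between 16703 and 23090.3, and in fat rescue between 22958 and 27872. All 14 of those markers had positive estimates in knockout against wild type and 13 of 14 in fat rescue, 0 of them past the threshold in either (2 and 5 at an unadjusted p under 0.05, beside 7.25% and 8.17% of all genes). Groups did not overlap for 0 of the 14 in knockout and 7 in fat rescue against wild type, beside 3.84% and 9.24% of all genes. Lyz2, Csf1r and C1qa were the brightest of these markers. For mesothelium, the cell layer that covers this depot, 12 markers were listed, and their sum ran from 3698 to 5767 on the wild-type arrays, from 5072 to 6698 on the knockout arrays and from 6251 to 6883 on the fat rescue arrays, the last above all wild-type arrays. Upk3b, Gpm6a and Cldn15 were the brightest of them. Against wild type 0 of the 12 passed the threshold in either line. An unadjusted p under 0.05 was seen for 0 in knockout and 6 in fat rescue, beside 7.25% and 8.17% of all genes. Groups did not overlap for 1 and 5 of the 12, beside 3.84% and 9.24% of all genes. The sum of 12 fibroblast markers, led by Dcn, Vim and Col3a1, was likewise highest on knockout array 1, at 70729, where the other knockout arrays lay between 44534 and 55968, wild type between 46314 and 56159 and fat rescue between 52394 and 55417. Of 9 measured lymphocyte markers, led by Cd52, the sum was 2189 on that array, against 1024 to 1501 on the other knockout arrays, 710 to 1144 in wild type and 1392 to 1476 in fat rescue. Here too the fat rescue arrays lay above all wild-type arrays. Cd52 alone gave most of the lymphocyte sum, with a mean of 963 of 1476 in knockout and 572 of 966 in wild type. Against wild type 0 of the 9 passed in either line. An unadjusted p under 0.05 was seen for 1 in knockout and 1 in fat rescue, beside 7.25% and 8.17% of all genes. Groups did not overlap for 0 and 1 of the 9, beside 3.84% and 9.24%. The part of these cell types in the Sdc1, Sdc3 and Gpc6 values was not tested. Wild-type array 1 was the lowest wild-type array for 11 of the 21 probe sets, and all 3 of Sdc3 and 4 of 5 of Gpc6 were among them. Fat rescue array 2 was the highest of its group for 13 of 21.

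The genes that build, cut, bind or serve heparan sulfate proteoglycans gave no call either. Of 121 such genes in 6 lists 116 were on the array and 102 were measured, each by its probe set of highest mean signal. In knockout against wild type 0 of 102 passed the adjusted threshold, beside 0.0393% of all 12709 genes read the same way, and 10 had an unadjusted p under 0.05 (9.80%, beside 7.25%). In fat rescue against wild type the counts were 0 (beside 0.0236%) and 11 (10.8%, beside 8.17%), and in fat rescue against knockout 0 and 5 (4.90%, beside 3.79%). Each of these shares was near that of all genes, and the counts of the single lists below stand beside the same 7.25% and 8.17% in knockout and fat rescue against wild type. The medians over the 102 genes were 0.039, 0.096 and 0.046 in that order, beside 0.016, 0.028 and 0.010 over all genes.

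Among the 8 measured genes of other proteoglycan cores, 0 passed, and 2 had an unadjusted p under 0.05 in fat rescue against wild type. Spock2, a matrix proteoglycan, had signals of 269 ± 45.6 (wild type), 307 ± 70.3 (knockout) and 463 ± 151 (fat rescue), with a difference of 0.75 ± 0.21 in fat rescue against wild type (limma adjusted p = 0.479). Cd44, the hyaluronan receptor, had signals of 318 ± 88.6 (wild type), 417 ± 213 (knockout) and 522 ± 15.9 (fat rescue), with 0.75 ± 0.29 (0.615). Tgfbr3, the proteoglycan co-receptor of TGF-beta, was close to level in knockout (0.009 ± 0.11), as was Hspg2, the basement membrane core perlecan, in fat rescue (0.020 ± 0.16). For both of these genes the limma adjusted p was above 0.7 in each comparison with wild type.

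Of 15 genes for the linker and the chain's polymerization 0 passed, with 1 unadjusted p under 0.05 in knockout against wild type and 0 in fat rescue. That gene was Pxylp1, the linker xylose phosphatase, at 0.63 ± 0.26 (limma adjusted p = 0.628). Extl3, a glycosyltransferase that starts the chain, Papss2, which makes the sulfate donor, and Ugdh, which makes the glucuronate donor, were the brightest, and their differences lay between -0.14 and 0.16. Of 10 genes that modify the chain 0 passed, with 1 unadjusted p under 0.05 in knockout and 2 in fat rescue against wild type. Hs3st6, a 3-O-sulfotransferase, had signals of 79.1 ± 17.5 (wild type), 55.4 ± 8.29 (knockout) and 47.3 ± 5.57 (fat rescue), and its differences were -0.50 ± 0.21 and -0.72 ± 0.22 (limma adjusted p = 0.628 and 0.531). Ndst2, an N-deacetylase and N-sulfotransferase, stood at 0.46 ± 0.20 in fat rescue against wild type (0.638). Sulf2, which removes 6-O-sulfate outside the cell, was the brightest of them and stood at -0.35 ± 0.20 and -0.24 ± 0.22.

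Of 12 genes for cutting chains or shedding core proteins 0 passed, with 0 and 1 at an unadjusted p under 0.05. Mmp9, a gelatinase that sheds syndecans, had signals of 125 ± 29.8 (wild type), 106 ± 18.9 (knockout) and 88.1 ± 16.9 (fat rescue) and stood at -0.49 ± 0.22 in fat rescue against wild type (limma adjusted p = 0.639). Timp3, an inhibitor of shedding that binds heparan sulfate, stood at -0.19 ± 0.11 and 0.11 ± 0.12. Mmp14 and Mmp2, membrane and secreted matrix proteases, stood at 0.36 ± 0.21 and 0.29 ± 0.16 in knockout, and their SDs there, 329 and 241, were the widest of the 3 genotypes.

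Of 21 genes for cytoplasmic partners and integrins, through which syndecan-4 acts, 0 passed. In knockout against wild type 4 of 21 had an unadjusted p under 0.05, and in fat rescue 1, beside 7.25% and 8.17% of all genes. Arf6, a GTPase of syndecan and integrin recycling, had signals of 1348 ± 53.2 (wild type), 1683 ± 74.0 (knockout) and 1652 ± 73.9 (fat rescue). Both lines lay above all wild-type arrays, at 0.32 ± 0.072 and 0.29 ± 0.077 (limma adjusted p = 0.376 and 0.430). Actn4, an actin crosslinker that binds the tail of syndecan-4, had signals of 3155 ± 173 (wild type), 2692 ± 73.3 (knockout) and 2928 ± 86.5 (fat rescue), and knockout lay below all wild-type arrays at -0.23 ± 0.069 (0.558). Itgb1, the integrin beta-1 chain, stood at -0.26 ± 0.080 in knockout (0.580) and 0.037 ± 0.087 in fat rescue. Sdcbp, or syntenin, which binds the tails of all syndecans, stood at 0.082 ± 0.090 and 0.13 ± 0.097, with overlapping groups, and Rac1 and Rhoa lay within 0.1 of 0 in both lines.

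Of 36 ligands and co-receptors 0 passed, with 4 and 5 at an unadjusted p under 0.05 in knockout and fat rescue against wild type, beside 7.25% and 8.17% of all genes. Ccl5, a chemokine that binds heparan sulfate, had the smallest adjusted p of the 102 genes in fat rescue, with signals of 99.9 ± 12.2 (wild type), 154 ± 37.0 (knockout) and 201 ± 17.0 (fat rescue) and a difference of 1.01 ± 0.19 (limma adjusted p = 0.184). Lpl, lipoprotein lipase, was very bright and stood at -0.077 ± 0.14 and -0.091 ± 0.15, and Gpihbp1, which carries it across endothelium, at -0.26 ± 0.10 and -0.036 ± 0.11. Bmp4, a BMP ligand, stood at 0.42 ± 0.16 in fat rescue against wild type (0.617), Fgf9, a fibroblast growth factor, at 1.06 ± 0.44 (0.621), and Mdk, midkine, at 0.69 ± 0.31 in knockout (0.647), all as limma adjusted p.

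The genes beside Sdc4 on chromosome 2 were read in the order of the GRCm38.p6 gene table. Each was counted by its probe set of highest mean signal. Of the 10 measured genes on each side 0 of 20 passed in any comparison, and 1 of 20 had an unadjusted p under 0.05 in each comparison, near the 7.25%, 8.17% and 3.79% of all genes in knockout and fat rescue against wild type and in fat rescue against knockout. Their differences from wild type lay between -0.55 and 0.71 in knockout, short of the 2.42 of Sdc4, and between -0.87 and 1.12 in fat rescue. The direct neighbours Matn4, a matrix protein, and Sys1, a Golgi protein, stood at 0.034 ± 0.23 and -0.13 ± 0.087 in knockout. By the probe set of highest mean signal, Wfdc2, a whey acidic protein family member, had the highest estimate of the 20, at 0.71 ± 0.52 and 1.12 ± 0.56. Stk4, a kinase of the Hippo pathway, was the gene with an unadjusted p under 0.05 in knockout, at 0.26 ± 0.10, and Rims4, a synaptic protein, the one in fat rescue, at -0.87 ± 0.27.

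**Figure D4:**
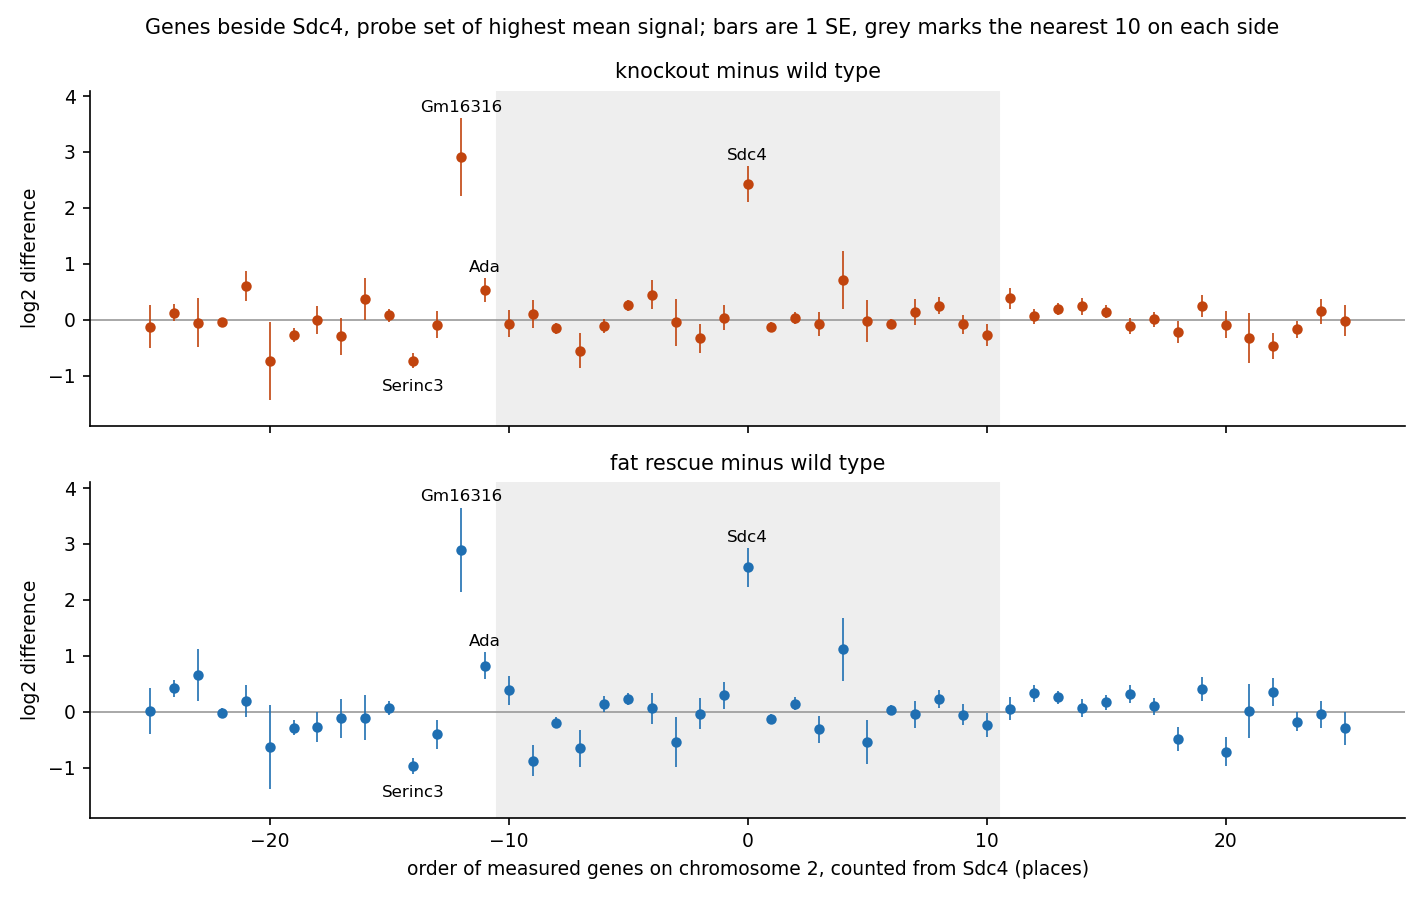
Log2 differences from wild type of Sdc4 and of the 25 measured genes on each side of it on chromosome 2, by their order (places from Sdc4), in knockout (top) and fat rescue (bottom); points are the probe set of highest mean signal, bars 1 SE and the grey band the nearest 10 on each side. Sdc4 lies above the 20 genes nearest to it, and Gm16316, Ada and Serinc3, which lie 12, 11 and 14 places away, were named after their values were seen.

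Over the 11 arrays, the probe sets whose log2 signals ran most like 1448793_a_at of Sdc4 were those of Dtd2 (Pearson r = 0.95), Gbp2b (0.94), Tcea2 (0.93), Zfp84 (0.92) and Hpca (0.90), out of 22935 with 1 gene symbol. Those most opposed were of Serinc3 (-0.96), Clmn (-0.92), Pkig (-0.90), Phgdh (-0.90) and Smim19 (-0.89). These are descriptions over arrays of 3 genotypes and share the contrast that chose Sdc4. Other kept probe sets of these genes did not all follow. In knockout and fat rescue against wild type, Zfp84 1425210_s_at stood at -0.23 and -0.28, and Hpca 1450930_at at 0.40 and 0.051. Clmn 1439117_at stood at 0.032 and -0.22, while all those of Serinc3 and Phgdh were negative. The Gbp2b and Hpca probe sets most like Sdc4 had wild-type means of 13.75 and 18.95, against about 23.7 for the dimmest probe set kept. Of the 10 genes, Tcea2, Serinc3 and Pkig lie on chromosome 2 as Sdc4 does, and Dtd2 and Clmn on chromosome 12 as Bdkrb1 does. Serinc3 and Pkig are 14 and 13 places from Sdc4 among the measured genes. Whether the lines differ from wild type in strain background along this stretch of chromosome 2 was not tested, which bears on every difference of Sdc4 from wild type given here. The other members of the family ran far less like it, with r from 0.41 (Sdc3, 1436482_a_at) to -0.37 (Sdc2, 1448545_at).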

How the data were processed

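The authors deposited a table of signal intensity per probe set, linear, for 11 one-colour arrays of total RNA, 1 a sample; the submitters' processing notes name GCOS 1.3 and MAS5. The deposited intensity has a trimmed mean of 200.0 on every array (2% removed at each end) and no detection calls; the build is not given in the sources used here. Of 45101 probe sets 64 were controls. The single value of 0 was set to 0.1. Log2 signals of the upper 60% by mean (27022) were fitted with limma 3.58.1 in R 4.3.3 (eBayes with trend, genotype only, all 11 arrays), two-sided, with Benjamini-Hochberg adjustment over all of them. Members and lists were chosen with earlier results of these data known. Named are all members, in each list the 3 brightest genes and those of smallest unadjusted p (at most 6), the 10 genes on each side of Sdc4, the 5 most and least like it, and the 3 brightest markers of a cell type; not all are printed. Gm16316, Ada and further probe sets of Serinc3 and Pkig were named after their values were seen. Alternatives were other filters, quantile normalization, median centring, an offset of 50, 1 probe set a gene, eBayes without trend, the 2 genotypes compared alone, each array left out, the replicate block and, added after seeing the data, leaving out wild-type array 1 with fat rescue array 1. Symbols, gene order and promoters come from tables on GRCm38.p6 and the platform annotation.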

Additional observations from a re-analysis of the deposited data

Results flagged for a closer look

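Among 42 groups of 4 arrays (21 probe sets in wild type and in knockout), 3 held an array far from the other 3, where chance alone gives about 1 in 20. Wild-type array 4 was low for Sdc2 with 1417011_at, at 328 where the next array read 398. Knockout array 1 was high for Sdc3 with 1436482_a_at, at 132 where the next read 96.7. The same array was high for Sdc3 with 1450027_at, at 731 where the next read 458. Knockout array 1 also had the highest summed signal of the 14 macrophage markers, 34010.1, and the highest of the fibroblast and lymphocyte markers, and the part of those cells in its Sdc3 signal was not tested.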

How the results depend on the processing

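The difference of Sdc4 with 1448793_a_at from wild type lay between 2.17 and 2.84 in knockout and between 2.33 and 3.03 in fat rescue over the 21 alternatives. That difference chose the family and the alternatives reuse the same arrays, so these ranges are a description and support nothing. No probe set of the other 7 genes passed the threshold in any alternative, and their smallest adjusted p was 0.345. Of their 57 differences 29 turned sign in at least 1 alternative. Same-numbered arrays had deviations with r from -0.09 to 0.22. Arrays of different number were not compared in this way, so whether the replicate numbers pair the arrays was not tested. With the replicate block 9 probe sets of all passed in knockout and 3 in fat rescue against wild type. None of them belonged to the other 7 genes. Without the block these counts over all probe sets were 8 and 6. They were 14 (4 higher, 10 lower) and 10 (4 higher, 6 lower) with median centring, which moved the median of all probe sets to -0.11 and -0.058, against 5 higher with 3 lower and 4 higher with 2 lower. They were 5 and 3 without the trend in eBayes and also with only the 2 genotypes compared, and 5 and 2 with 1 probe set a gene. Leaving out 1 array gave from 5 (without knockout array 2 or wild-type array 3) to 14 (without wild-type array 1) in knockout, and from 2 (without fat rescue array 3) to 7 in fat rescue. With median centring, the sign turned in knockout against wild type for Sdc1 1415943_at (-0.092), Sdc1 1415944_at (-0.056), Sdc2 1417011_at (-0.12), Sdc2 1417012_at (-0.14), Gpc1 1417389_at (-0.044), Gpc6 1419689_at (-0.042) and Gpc6 1428774_at (-0.14) and in fat rescue against wild type for Sdc2 1417011_at (-0.091) and Gpc1 1417389_at (-0.075) and in fat rescue against knockout for Sdc2 1417011_at (0.024), Sdc2 1417012_at (0.011) and Sdc2 1448545_at (0.0046). With quantile normalization, the sign turned in knockout against wild type for Sdc1 1415944_at (-0.037), Sdc2 1417012_at (-0.024), Gpc4 1421088_at (0.013), Gpc6 1419689_at (-0.042) and Gpc6 1428774_at (-0.055) and in fat rescue against wild type for Sdc2 1417011_at (-0.0046) and Gpc1 1417389_at (-0.028). With the replicate block, the sign turned in fat rescue against wild type for Sdc2 1417011_at (-0.035). Leaving out 1 array, or both wild-type array 1 and fat rescue array 1, gave these ranges where the sign turned. For Sdc1 in knockout against wild type it was -0.20 to 0.27 (1415943_at), -0.23 to 0.42 (1415944_at) and -0.25 to 0.16 (1437279_x_at). For Sdc1 in fat rescue against knockout it was -0.089 to 0.56 (1415944_at) and -0.0092 to 0.40 (1437279_x_at). For Sdc2 in knockout against wild type it was -0.039 to 0.063 (1417011_at) and -0.11 to 0.080 (1417012_at). For Sdc2 in fat rescue against wild type it was -0.062 to 0.085 (1417011_at) and -0.14 to 0.046 (1417012_at). For Sdc2 in fat rescue against knockout it was -0.078 to 0.051 (1417011_at), -0.11 to 0.041 (1417012_at) and -0.11 to 0.032 (1448545_at). For Sdc3 in fat rescue against wild type it was -0.0095 to 0.59 (1420853_at). For Sdc3 in fat rescue against knockout it was -0.082 to 0.21 (1420853_at). For Sdc4 in fat rescue against knockout it was -0.38 to 0.070 (1417654_at). For Gpc1 in knockout against wild type it was -0.0077 to 0.20 (1417389_at). For Gpc1 in fat rescue against wild type it was -0.052 to 0.14 (1417389_at). For Gpc1 in fat rescue against knockout it was -0.17 to 0.035 (1417389_at). For Gpc3 in fat rescue against wild type it was -0.27 to 0.34 (1450990_at). For Gpc3 in fat rescue against knockout it was -0.55 to 0.055 (1450990_at). For Gpc4 in knockout against wild type it was -0.10 to 0.089 (1421088_at). For Gpc4 in fat rescue against wild type it was -0.36 to 0.041 (1421088_at). For Gpc4 in fat rescue against knockout it was -0.36 to 0.0019 (1421088_at) and -0.26 to 0.072 (1436514_at). For Gpc6 in knockout against wild type it was -0.14 to 0.29 (1419689_at), -0.12 to 0.22 (1428774_at) and -0.31 to 0.13 (1441438_at). For Gpc6 in fat rescue against wild type it was -0.13 to 0.24 (1437417_s_at) and -0.073 to 0.29 (1441438_at). For Gpc6 in fat rescue against knockout it was -0.21 to 0.031 (1437417_s_at). The cause of these turns was not tested. The number of arrays a genotype limits the precision, and there are no detection calls to tell signal from background.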

Other observations

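Beyond the 10 measured genes on each side of Sdc4 lies a group of 4 neighbouring ones on chromosome 2, from 11 to 14 places away, whose values were looked at after Serinc3 and Pkig appeared among the genes most opposed to Sdc4. They were chosen after their values were seen, and nothing is supported with them. The farthest, Serinc3, encodes a membrane protein named as a serine incorporator. Its probe set 1434548_at read 412, 786, 802 and 821 on the wild-type arrays, 327, 52.1, 59.0 and 103 on the knockout arrays and 108, 76.7 and 113 on the fat rescue arrays. All arrays without the endogenous receptor lay below all wild-type arrays, with log2 differences of -2.75 ± 0.46 and -2.80 ± 0.49, and all 6 kept probe sets of Serinc3 had negative estimates in both comparisons with wild type. Pkig, an inhibitor of protein kinase A, read 368, 565, 652 and 642, 372, 324, 222 and 275 and 224, 208 and 342 with 1423945_a_at, and stood at -0.89 ± 0.21 and -1.11 ± 0.23. Its other probe set, 1434820_s_at, stood at -0.092 ± 0.24 and -0.40 ± 0.26. Gm16316, a predicted gene, read 53.8, 7.20, 15.2 and 3.10 on the wild-type arrays, 59.1, 90.9, 130.5 and 81.8 on the knockout arrays and 132, 38.1 and 128 on the fat rescue arrays, at 2.90 ± 0.70 and 2.89 ± 0.76. Its wild-type arrays 2, 3 and 4 read below the 23.7 or so of the dimmest probe set kept, so the size of these differences rests on dim values. Ada, adenosine deaminase, stood at 0.53 ± 0.22 and 0.82 ± 0.24. As with Sdc4, wild-type array 1 was the wild-type array nearest to the knockout arrays in Serinc3 1434548_at (412), Pkig 1423945_a_at (368) and Gm16316 (53.8). It was not in Pkig 1434820_s_at, at 220.6, where wild-type array 3 read 437.1 and the knockout arrays lay between 351.4 and 398.0. In Ada wild-type arrays 1 and 2 were alike, at 79.7 and 79.9.

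Over the 25 measured genes on each side of Sdc4, a window set after these values were seen and read with the probe set of highest mean signal of each gene, the groups did not overlap for 2 of 50 genes (4.0%, against 3.84% of all genes) in knockout against wild type and for 9 of 50 (18.0%, against 9.24%) in fat rescue. The 2 in knockout were Serinc3 and Gm16316. An unadjusted p under 0.05 was seen for 6 of 50 (12.0%, against 7.25%) and 10 of 50 (against 8.17%). In knockout 0 of 50 passed the adjusted threshold, against 0.0393% of all genes, and in fat rescue 1 did, against 0.0236%. It was Serinc3 with 1455550_x_at, at -0.97 ± 0.14 (limma adjusted p = 0.0495). The window was set with the values of Serinc3 known, so this pass is a description. Without the trend in eBayes, or with 1 probe set a gene, 0 probe sets of all passed as lower in fat rescue against wild type. The same held on leaving out wild-type array 2, 3 or 4, fat rescue array 2 or 3, or knockout array 2.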
